A study of Saccharomyces cerevisiae with 17 samples.

Results

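The 10 genes described here encode the pair of proteins that recognise the intron branch site in budding yeast and 8 of the specific proteins of the U2 small nuclear ribonucleoprotein (snRNP). They were chosen by name, from their known role, and all 10 have a row among the 5326 genes of the deposited expression table. Messenger RNA introns are removed by the spliceosome, a machine of small nuclear RNAs and proteins that assembles anew on each intron, largely while the RNA is still being made. The branch site is first bound by Msl5, with its partner Mud2, and then by the U2 snRNP, whose RNA pairs with the branch site and is held there by the SF3b and SF3a protein complexes. Lea1 and Msl1 bind the U2 RNA itself.

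RNA was sequenced from haploid MATa yeast of the BY4741 background, with his3, leu2, met15 and ura3 markers mutated, grown in rich medium (YPD) at 30 °C to the middle of logarithmic growth. The 4 genotypes were a deletion of SET2 (set2Δ), which removes the methyltransferase of lysine 36 of histone H3; H3K36A, in which that lysine is replaced by alanine; a deletion of EAF3 (eaf3Δ), which removes a chromodomain protein that binds the methylated lysine; and wild type. The labels give the same background genotype for all libraries and do not say how the mutants were built or from how many clones. Each genotype had 2 biological replicate libraries of RNA depleted of rRNA, and the study asked what histone H3 lysine 36 methylation and Eaf3 contribute to spliceosome assembly on nascent RNA.

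The values are RPKM (reads scaled to gene length and library size), which the authors averaged over the libraries of each genotype. There is therefore 1 value per gene and genotype, no spread between replicates, no test and no p-value, and the read depth behind a value is unknown. No listed value is below 1.00, so each listed gene reached that level in every genotype. In bulk cultures, fewer cells that express a gene and less RNA per cell cannot be told apart, and a lower RPKM cannot tell fewer transcripts per cell from a larger share of reads taken by other RNAs. Most listed genes had a lower RPKM in the mutants: the median log2 ratio over all listed genes was -0.32 in set2Δ, -0.44 in H3K36A and -0.48 in eaf3Δ over wild type. Ratios are log2((mutant + 1)/(wild type + 1)), with a pseudocount of 1, and "relative log2" is such a ratio after subtracting that median. Small RNA genes held 27.1% of the summed RPKM in set2Δ, 29.9% in H3K36A and 28.2% in eaf3Δ, against 22.7% in wild type. With them left out and the rest rescaled, all 10 genes were still lower in each mutant. The share of listed genes lower on that scale was not computed. At least 2-fold lower were then 2, 3 and 4 of the 10 in set2Δ, H3K36A and eaf3Δ, against 3, 4 and 5 with them kept. Over listed genes the counts were 537, 1052 and 1078, against 606, 1250 and 1220. Whether the small RNA shares account for the lower values was not tested. No row was used here for SET2, EAF3, HHT1 or HHT2, so the genotypes were not checked on the altered genes.

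All 10 genes had a lower RPKM in each of the 3 mutants than in wild type, as did 67.0% of all listed genes. The differences were uneven. MSL5 was the closest to wild type in every mutant. The genes farthest below it were CUS1, PRP21 and RSE1 in set2Δ and PRP11, CUS1 and PRP21 in both H3K36A and eaf3Δ. The lowest value of a gene lay in H3K36A for 6 of the 10 (HSH155, CUS1, PRP9, PRP11, PRP21 and LEA1) and in eaf3Δ for the other 4 (MSL5, MUD2, RSE1 and MSL1).

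**Figure D1:**
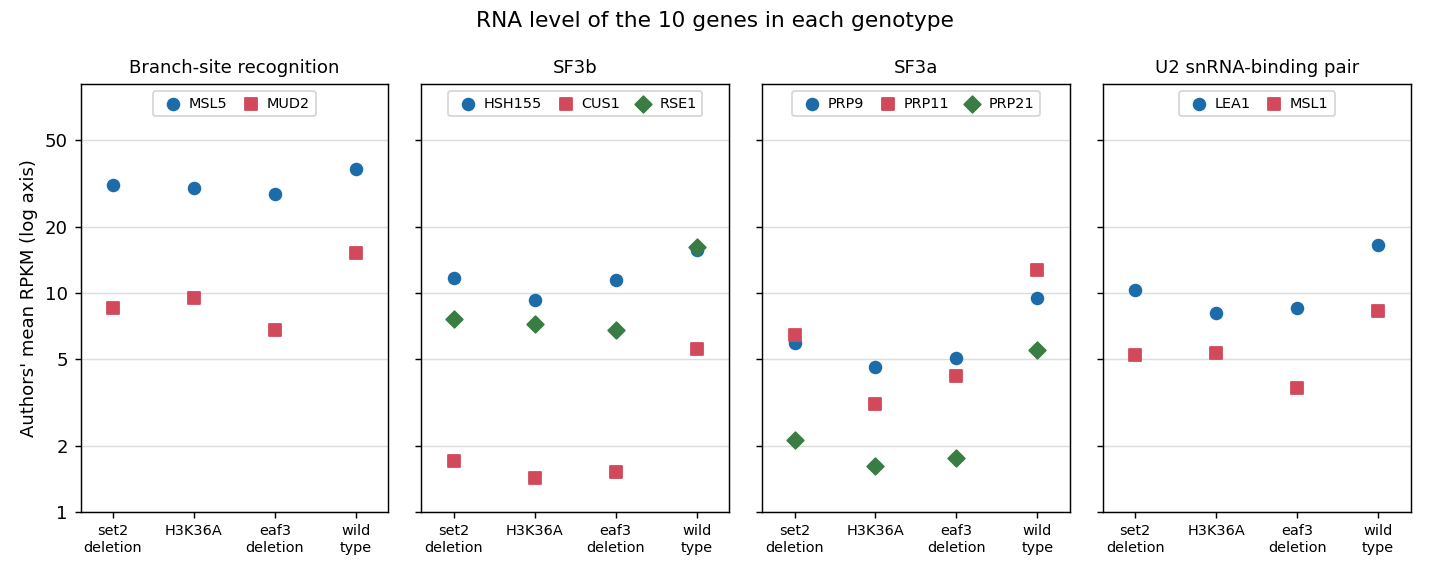
Authors' mean RPKM (log axis) of the 10 genes in set2Δ, H3K36A, eaf3Δ and wild type, in panels by role; each point is 1 averaged value. MSL5 stays between 28.2 and 36.6, while CUS1 lies at 1.42 to 1.71 in the mutants and 5.52 in wild type.

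MSL5 (YLR116W, chromosome XII 380822 to 382252, R64 assembly) encodes the branch-point binding protein, the yeast counterpart of human SF1. Its RPKM was 30.9 in set2Δ, 30.1 in H3K36A and 28.2 in eaf3Δ, against 36.6 in wild type. It was the highest of the 10 in every genotype, and its relative log2 was 0.08 in set2Δ, 0.17 in H3K36A and 0.12 in eaf3Δ. MSL5 was thus the member whose RPKM was slightly lower than wild type in each mutant but slightly higher once the shift of the median gene was taken off.

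MUD2 (YKL074C, chromosome XI 294610 to 296193) encodes the partner of Msl5, related to the large subunit of human U2AF. It had 8.54 in set2Δ, 9.47 in H3K36A and 6.73 in eaf3Δ, against 15.2 in wild type. Its relative log2 was -0.45 in set2Δ, -0.19 in H3K36A and -0.59 in eaf3Δ, so H3K36A was the mutant nearest to wild type for MUD2. Although the proteins act as a pair, the RPKM of MUD2 per MSL5 was 0.276 in set2Δ, 0.315 in H3K36A and 0.239 in eaf3Δ, against 0.415 in wild type.

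HSH155 (YMR288W, chromosome XIII 845571 to 848486) encodes the large scaffold of SF3b that clamps the helix of U2 RNA and branch site, the counterpart of human SF3B1. It had 11.7 in set2Δ, 9.26 in H3K36A and 11.4 in eaf3Δ, against 15.7 in wild type, with relative log2 of -0.08 in set2Δ, -0.26 in H3K36A and 0.05 in eaf3Δ. HSH155 was thus within a small distance of the median gene, as MSL5 was. RSE1 (YML049C, chromosome XIII 174220 to 178305), which encodes another large SF3b subunit, had 7.57 in set2Δ, 7.23 in H3K36A and 6.73 in eaf3Δ, against 16.2 in wild type. Its relative log2 was -0.69 in set2Δ, -0.62 in H3K36A and -0.67 in eaf3Δ. The level of RSE1 per HSH155 was 0.646 in set2Δ, 0.782 in H3K36A and 0.590 in eaf3Δ, against 1.03 in wild type. RSE1 thus had the lower value of the pair in each mutant, while without replicates their order in wild type cannot be resolved.

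CUS1 (YMR240C, chromosome XIII 749930 to 751240), an SF3b subunit needed for U2 to join the intron, had 1.71 in set2Δ, 1.42 in H3K36A and 1.51 in eaf3Δ, against 5.52 in wild type. It was the lowest of the 10 in each mutant. Its relative log2 was -0.95 in set2Δ, -0.98 in H3K36A and -0.89 in eaf3Δ, and the listed genes with a lower ratio were 4.51% in set2Δ, 10.1% in H3K36A and 10.8% in eaf3Δ. Given the smallest listed value of 1.00, the lowest log2 ratio that CUS1 could show is -1.70; the ratios observed, before subtracting the median, were -1.27 in set2Δ, -1.43 in H3K36A and -1.37 in eaf3Δ.

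PRP9 (YDL030W, chromosome IV 397537 to 399129), PRP11 (YDL043C, chromosome IV 375680 to 376480) and PRP21 (YJL203W, chromosome X 53341 to 54183) encode the 3 subunits of SF3a, which joins the SF3b-bound particle to form mature U2 snRNP. PRP9 had 5.91 in set2Δ, 4.60 in H3K36A and 5.04 in eaf3Δ, against 9.47 in wild type. PRP11 had 6.44 in set2Δ, 3.11 in H3K36A and 4.16 in eaf3Δ, against 12.7 in wild type. PRP21 had 2.13 in set2Δ, 1.62 in H3K36A and 1.77 in eaf3Δ, against 5.50 in wild type. As for CUS1, the smallest listed value sets the lowest log2 ratio that PRP21 could show, here -1.70. Its observed ratios, before subtracting the median, were -1.06 in set2Δ, -1.31 in H3K36A and -1.23 in eaf3Δ. PRP11 was the highest of the trio in set2Δ and in wild type, and PRP9 was the highest in H3K36A and eaf3Δ.

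PRP11 in H3K36A gave the lowest ratio of any of the 10 genes to wild type, with a relative log2 of -1.30, and 4.39% of listed genes lay lower. Its relative log2 was -0.57 in set2Δ and -0.93 in eaf3Δ. Per PRP9, the level of PRP11 was 1.09 in set2Δ, 0.676 in H3K36A and 0.825 in eaf3Δ, against 1.35 in wild type. PRP21 per PRP9 was 0.360 in set2Δ, 0.352 in H3K36A and 0.350 in eaf3Δ, against 0.581 in wild type, values that lie closer together among the mutants than those of PRP11.

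LEA1 (YPL213W, chromosome XVI 150614 to 151330) encodes a leucine-rich repeat protein and MSL1 (YIR009W, chromosome IX 374525 to 374860) its RNA-binding partner, both with counterparts in the human U2 snRNP. LEA1 had 10.3 in set2Δ, 8.11 in H3K36A and 8.48 in eaf3Δ, against 16.5 in wild type. MSL1 had 5.20 in set2Δ, 5.30 in H3K36A and 3.66 in eaf3Δ, against 8.26 in wild type. The level of MSL1 per LEA1 was 0.506 in set2Δ, 0.654 in H3K36A and 0.432 in eaf3Δ, against 0.500 in wild type, so this pair was lower together in set2Δ and diverged in opposite directions in the other mutants. U2 RNA itself (LSR1) has no row in the table as used here.

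**Figure D2:**
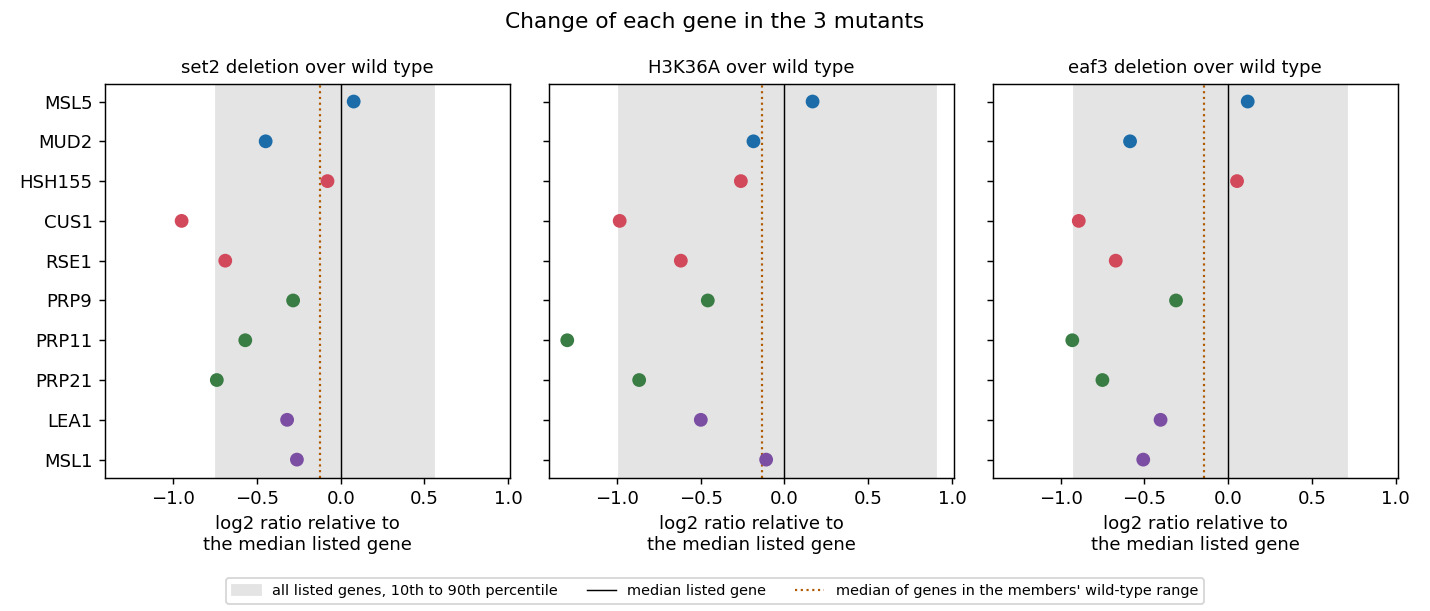
log2 ratio of each of the 10 genes to wild type, relative to the median listed gene (horizontal axis), in set2Δ, H3K36A and eaf3Δ; colours mark the 4 roles, the grey band spans the 10th to 90th percentile of all listed genes and the dotted line is the median of genes in the same wild-type range. CUS1 in set2Δ (-0.95), PRP11 in H3K36A (-1.30) and PRP11 in eaf3Δ (-0.93) are the points outside the band.

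Counted against a 2-fold limit, 3 of the 10 were at least 2-fold lower in set2Δ (CUS1, PRP21 and RSE1), against 11.4% of all listed genes. In H3K36A the same 3 and PRP11 were, 4 of 10, against 23.5% of listed genes. In eaf3Δ these 4 and MUD2 were, 5 of 10, against 22.9%. CUS1, PRP21 and RSE1 passed in all 3 mutants, as did 10.5% of listed genes. The 3 comparisons share the wild-type value, so a wild-type value that happened to be high would lower a gene in each of them at once.

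Values close to the limit decided several of these counts. RSE1 in set2Δ lay just inside it (log2 -1.01), as did PRP21 in set2Δ (-1.06), RSE1 in H3K36A (-1.06) and MUD2 in eaf3Δ (-1.07). MSL1 in eaf3Δ (-0.99), LEA1 in H3K36A (-0.94) and eaf3Δ (-0.89), PRP9 in H3K36A (-0.90) and PRP11 in set2Δ (-0.89) lay just outside. None of the 10 was at least 2-fold higher in any mutant, with a background of 1.07% in set2Δ, 3.15% in H3K36A and 1.18% in eaf3Δ. With a 1.5-fold limit, 7, 8 and 8 of the 10 were lower in set2Δ, H3K36A and eaf3Δ, against 30.5%, 42.1% and 43.5% of listed genes. Relative to the median gene these counts were 3, 4 and 5, after quantile normalization 1, 3 and 2, and with a pseudocount of 5 they were 3, 6 and 7. The shares of all listed genes past 1.5-fold were not computed on those scales, so these counts have no background.

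Relative to the median gene, few of the 10 passed 2-fold. The counts were 0 of 10 in set2Δ, 1 of 10 (PRP11) in H3K36A and 0 of 10 in eaf3Δ, against 3.77%, 9.71% and 8.05% of listed genes. On that scale 201 listed genes were lower and 107 higher in set2Δ, against 606 and 57 on the authors' scale. The corresponding splits were 517 and 422 against 1250 and 168 in H3K36A, and 429 and 212 against 1220 and 63 in eaf3Δ. The median of the 10 genes was -0.70 in set2Δ, -0.92 in H3K36A and -1.03 in eaf3Δ, or -0.38, -0.48 and -0.55 relative to the median gene. In set2Δ and H3K36A 9 of the 10 lay below the median gene, and in eaf3Δ 8 did.

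Genes expressed at a similar level were also lower than the table as a whole. The wild-type RPKM of the 10 ran from 5.50 to 36.6, and 9 of the 10 were below the median listed gene (23.0 in wild type). Over the 2895 listed genes in that range, the median log2 ratio was -0.44 in set2Δ, -0.58 in H3K36A and -0.63 in eaf3Δ. At least 2-fold lower were 15.8%, 29.7% and 29.6% of them, against 3, 4 and 5 of the 10 genes here, and 75.9% of them were below wild type in all 3 mutants. In each mutant 8 of the 10 genes had a lower ratio than the median of this range.

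A minimum mean RPKM of 10 over the 4 genotypes, the limit set for the comparison across genes, left 3 of the 10: MSL5, HSH155 and LEA1. None of these 3 was at least 2-fold lower in any mutant, against 6.43% of the 3657 genes above that limit in set2Δ, 18.0% in H3K36A and 16.0% in eaf3Δ. The limit uses the mutant values, and 3 of the 7 genes left out (MUD2, RSE1 and PRP11) had more than 10 in wild type; MUD2, with a mean of 9.99, missed it narrowly. For that reason the counts over all 10 genes are given first.

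**Figure D3:**
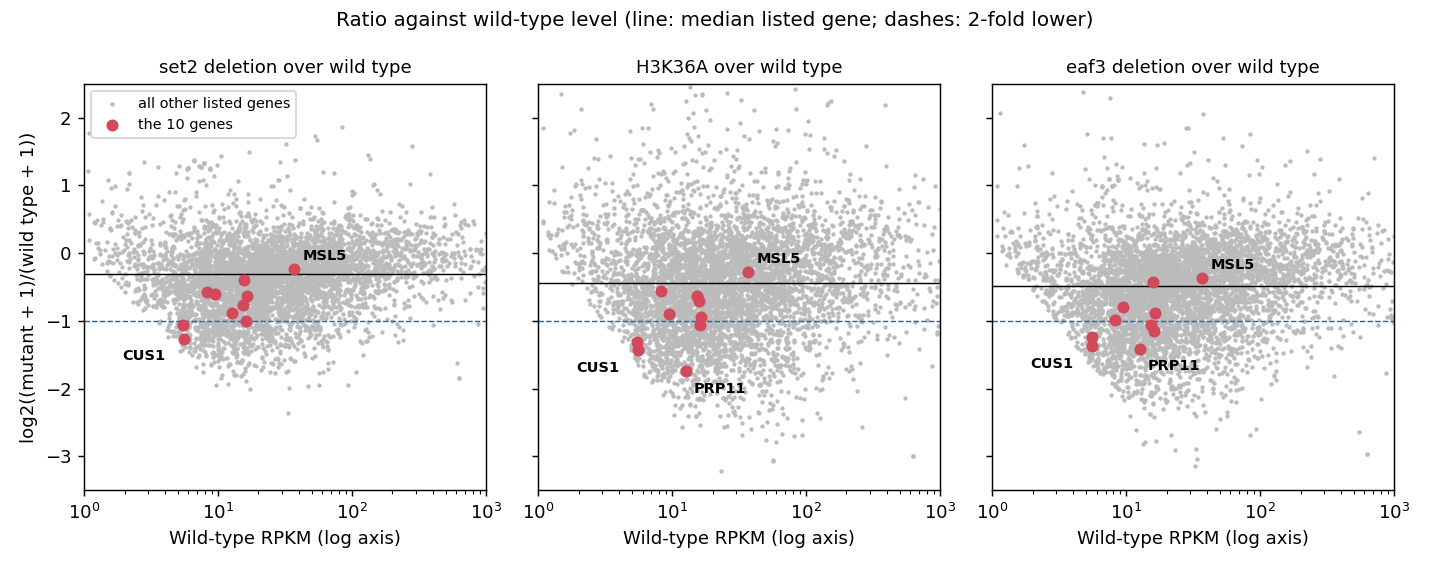
log2 ratio to wild type (vertical axis) against wild-type RPKM (log axis) for the 10 genes (red) and all other listed genes (grey), in set2Δ, H3K36A and eaf3Δ; the solid line is the median listed gene and the dashed line marks 2-fold lower. The axes leave out 225 listed genes, none of them among the 10. MSL5 lies just above the median line in each panel, and CUS1 lies near the lower edge that the smallest listed value sets for genes of its level.

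The group spanned a wider range of levels in the mutants. From the lowest to the highest gene the RPKM differed 18.1-fold in set2Δ, 21.1-fold in H3K36A and 18.6-fold in eaf3Δ, against 6.66-fold in wild type. In the mutants this is the span between MSL5 and CUS1, and CUS1 lay near the smallest listed value of 1.00. No such span was computed for other genes. Of all listed genes, 33.9% were under 10 in set2Δ, 36.8% in H3K36A and 38.2% in eaf3Δ, against 22.3% in wild type. In wild type LEA1, RSE1, HSH155 and MUD2 lay close together, from 15.2 to 16.5, and without replicates their order cannot be resolved. The same 4 genes lay between 7.57 and 11.7 in set2Δ. Their values were 7.23 to 9.47 in H3K36A, and 6.73 to 11.4 in eaf3Δ. These 4 genes were picked for their close values in wild type. At the low end, CUS1 and PRP21 were nearly equal in wild type (5.52 and 5.50) and were the lowest pair in every genotype. Across the 10 genes, Spearman's rho between the log2 ratio and wild-type RPKM was 0.54 in set2Δ, 0.42 in H3K36A and 0.58 in eaf3Δ, where wild-type RPKM is also the denominator of the ratio. With gene length, which runs from 336 to 4086 bases, rho was 0.05, 0.10 and 0.27. Over all listed genes, rho between the ratio and wild-type RPKM was 0.22, 0.10 and 0.20. Over the 2895 listed genes in the members' wild-type range it was 0.10, 0.05 and 0.10.

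Shares within the group do not depend on how a library was scaled. The branch-site pair made up 43.6% of the summed RPKM of the 10 genes in set2Δ, 49.3% in H3K36A and 45.0% in eaf3Δ, against 36.6% in wild type. MSL5 alone held 34.2% in set2Δ, 37.5% in H3K36A and 36.3% in eaf3Δ, against 25.8% in wild type. The share of MUD2 was 9.45% in set2Δ, 11.8% in H3K36A and 8.66% in eaf3Δ, against 10.7% in wild type, so it was higher only in H3K36A. SF3a held 16.0% in set2Δ, 11.6% in H3K36A and 14.1% in eaf3Δ, against 19.5% in wild type. SF3b held 23.2%, 22.3% and 25.3%, against 26.4% in wild type, and LEA1 with MSL1 17.1%, 16.7% and 15.6%, against 17.5%. The sum itself was 90.4 in set2Δ, 80.2 in H3K36A and 77.7 in eaf3Δ, against 141.8 in wild type.

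**Figure D4:**
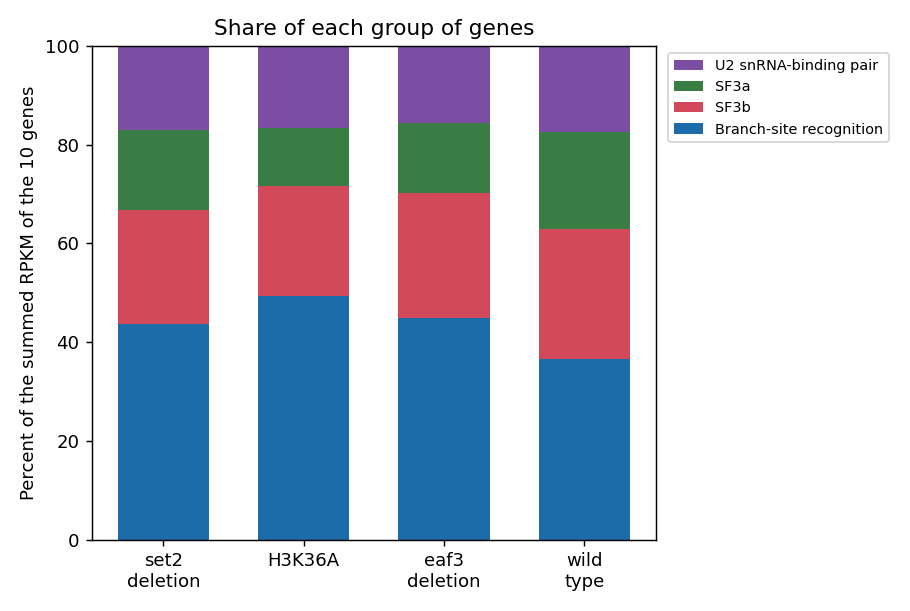
Share of the summed RPKM of the 10 genes (percent, bars from 0) held by each group of genes in set2Δ, H3K36A, eaf3Δ and wild type. The branch-site pair has 43.6%, 49.3% and 45.0% in the mutants and 36.6% in wild type, and SF3a has 16.0%, 11.6% and 14.1% in the mutants and 19.5% in wild type.

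Between mutants the 10 genes differed less. Of the 5326 listed genes, 3389 were lower in H3K36A over set2Δ, 4091 in eaf3Δ over set2Δ and 3032 in eaf3Δ over H3K36A. In H3K36A over set2Δ 8 of the 10 were lower, the median log2 ratio was -0.21 against -0.12 for the median listed gene, and PRP11 was the extreme (log2 -0.86; 3.11 in H3K36A against 6.44 in set2Δ). PRP11 was the 1 gene of the 10 at least 1.5-fold lower in that comparison and 0 were 1.5-fold higher, against 8.84% and 5.09% of listed genes. In eaf3Δ over set2Δ all 10 were lower, with a median of -0.19 against -0.17 for the median listed gene, and none passed 1.5-fold in either direction, against 6.48% lower and 1.18% higher among listed genes. In eaf3Δ over H3K36A the group split, 4 lower and 6 higher, with none beyond 1.5-fold and a background of 8.54% lower and 2.55% higher. There MUD2 (6.73 against 9.47) and MSL1 (3.66 against 5.30) had a log2 ratio of -0.44 each, and PRP11 (4.16 against 3.11) and HSH155 (11.4 against 9.26) had 0.33 and 0.28.

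Lists of other spliceosome genes had medians below the median gene as well. Their counts of genes at least 2-fold lower stand against 11.4% of listed genes in set2Δ, 23.5% in H3K36A and 22.9% in eaf3Δ, and their counts relative to the median gene against 3.77%, 9.71% and 8.05%. Of 9 further genes of U2 snRNP and of the steps around its joining, 8 had a row, and 2, 3 and 4 of them were at least 2-fold lower in set2Δ, H3K36A and eaf3Δ, with 0 higher. None passed relative to the median gene in any of these mutants, and their median relative log2 was -0.25, -0.31 and -0.40. The lowest were HSH49, another SF3b subunit (5.38, 4.56 and 5.03 in the mutants in that order, against 12.8 in wild type), and BUD13, of the RES complex that binds SF3b (1.54, 1.37 and 1.24, against 4.69). RDS3, a small SF3b subunit, had 11.1, 11.8 and 9.02, against 21.4 in wild type. CUS2, which helps U2 RNA to fold, had 5.05, 3.42 and 3.64, against 8.47. PML1 was above wild type in each mutant, with 33.5, 32.1 and 30.7 against 30.1. SUB2, YSF3 and PRP5 had relative log2 between -0.25 and 0.08 in the mutants.

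Of the 7 Sm genes, whose proteins form the ring on U1, U2, U4 and U5 RNA, 2, 4 and 4 were at least 2-fold lower in set2Δ, H3K36A and eaf3Δ, with median relative log2 of -0.32, -0.60 and -0.57. The counts relative to the median gene were 1, 1 and 3. SMB1 had 3.95, 3.22 and 2.92 in these mutants, against 12.6 in wild type; SMD3 12.2, 7.67 and 6.31, against 21.4; and SMD2 3.42, 3.32 and 2.43, against 9.34. SMX3, which encodes the ring protein SmF, was higher in each mutant, with 102.1, 93.6 and 91.97 against 79.3, so the ring genes did not share a direction.

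Among the 10 U1 snRNP genes 3, 6 and 5 were at least 2-fold lower in set2Δ, H3K36A and eaf3Δ, with median relative log2 of -0.55, -0.80 and -0.61. After the median gene's shift was taken off, 0, 3 and 4 passed. Genes of the list included PRP39 (5.32, 3.10 and 2.78 in the mutants, against 13.1 in wild type), its partner PRP42 (4.71, 3.05 and 2.60, against 11.5) and YHC1, a core subunit with a human counterpart (2.83, 1.65 and 1.75, against 7.74). NAM8, an RNA-binding protein of U1 snRNP, was above wild type in each mutant, with 25.8, 32.9 and 28.9 against 20.4.

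Of 13 genes of the U4/U6.U5 tri-snRNP, 11 had a row, and 2, 5 and 5 of them were at least 2-fold lower in set2Δ, H3K36A and eaf3Δ, with medians of -0.31, -0.45 and -0.48. Relative to the median gene the counts were 1, 2 and 2. SNU66 (1.88, 1.23 and 1.63, against 7.15 in wild type) and SPP381 (2.25, 1.36 and 1.42, against 6.85) had the lowest ratios; PRP31 had 7.90, 4.91 and 5.73, against 12.7, and PRP38 2.87, 2.35 and 2.03, against 5.98. The 10 genes of the Prp19 complex, which activates the assembled spliceosome, had 2, 3 and 3 at least 2-fold lower, shares near those of all listed genes in H3K36A and eaf3Δ, and medians of -0.30, -0.32 and -0.25. Relative to the median gene 0, 1 and 2 of them were at least 2-fold lower. They included ISY1 (3.85, 2.75 and 2.85, against 10.9 in wild type), SNT309 (4.27, 2.94 and 1.86, against 7.93), SYF2 (3.31, 4.27 and 4.36, against 8.33) and CLF1 (3.87, 3.22 and 2.99, against 8.57). PRP19 and SYF1 lay above the median gene in each mutant. Their relative log2 was 0.10, 0.26 and 0.28 for PRP19 and 0.20, 0.30 and 0.17 for SYF1. PRP46 and PRP45 lay between -0.01 and 0.22, and NTC20 and CEF1 between -0.42 and -0.18. The medians of the branch-site and U2 group lay within the range of these 5 lists in each mutant, and no test of a difference between lists was made.

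**Figure D5:**
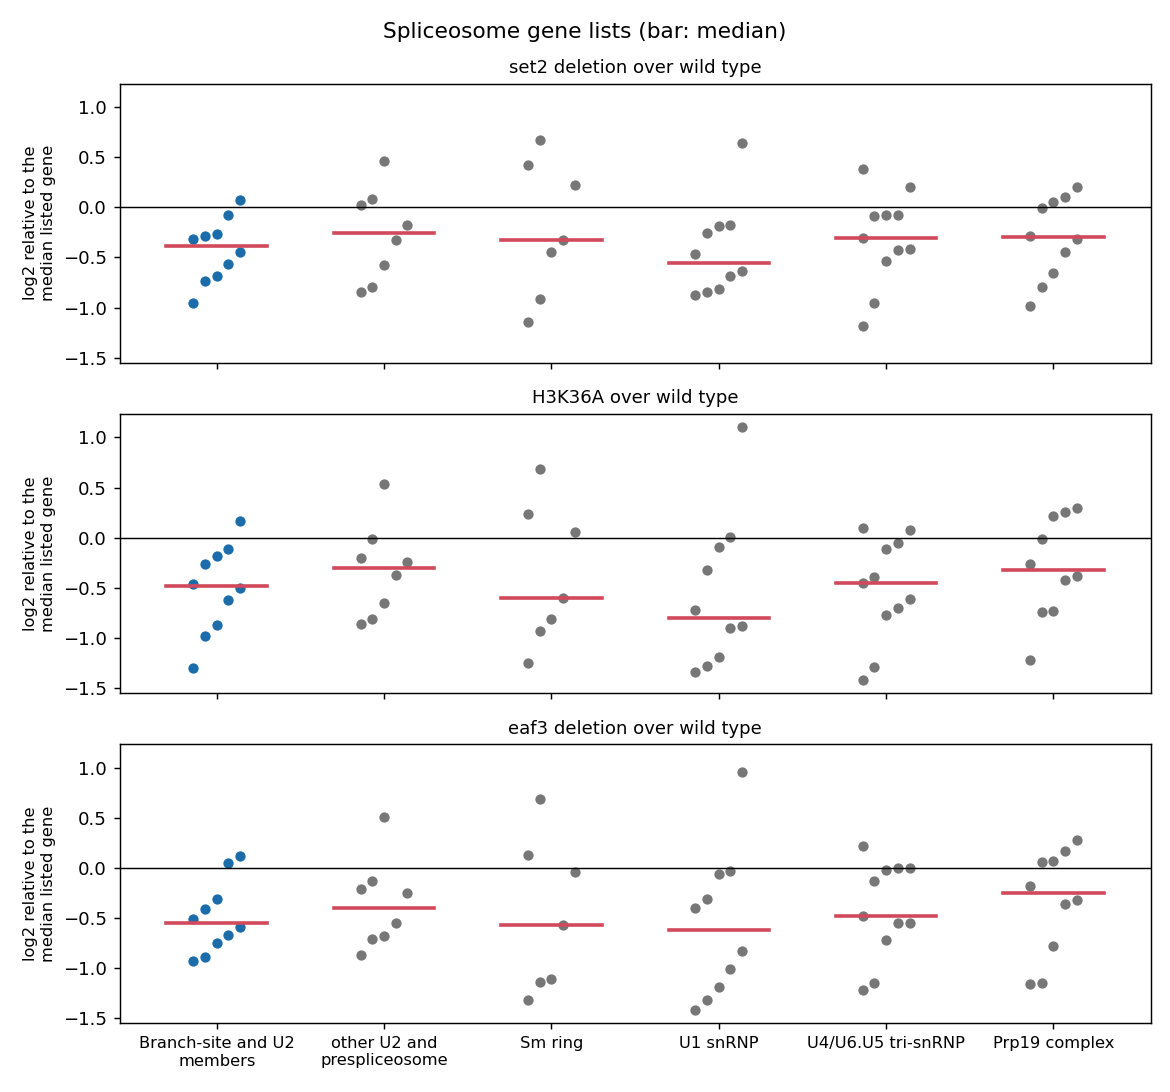
log2 ratio to wild type relative to the median listed gene (vertical axis) for each gene (points) of the branch-site and U2 group (blue) and of 5 other spliceosome lists (grey), in set2Δ, H3K36A and eaf3Δ; red bars are list medians. The group's medians (-0.38, -0.48 and -0.55) lie within the range of the other lists' medians in each panel.

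Of the 3654 other genes that met the minimum mean RPKM of 10, the 5 whose 3 ratios to wild type lay nearest to the medians of the 10 genes were VHR2, OCA2, PRP6, YKT6 and SED5, at Euclidean distances of 0.01 to 0.06 on the log2 scale. Among all 5316 other listed genes, the 5 nearest were VHR2, COG2, SAM37, OCA2 and PRP6, at distances of 0.01 to 0.05. PRP6, a tri-snRNP gene, had 10.1 in set2Δ, 9.02 in H3K36A and 8.16 in eaf3Δ, against 17.6 in wild type. VHR2, the nearest, had 38.9, 33.1 and 30.9, against 63.5 in wild type. The likeness rests on 3 ratios that share the wild-type value.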

How the data were processed

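Per the labels' protocols, stranded libraries were made from total RNA after rRNA removal. CASAVA, TopHat2 2.0.14 and sacCer3 are named in the submitters' processing notes. How RPKM was computed, on which gene models, whether by strand and with what treatment of shared reads is not stated in any label or header used here. Deposited RPKM values are, per the file headers, the authors' averages for each of 4 genotypes. Per-library depth is unknown. The 9 ChIP and input DNA libraries were not analysed here.

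Of 5328 rows, 2 carry a name that is no gene and were left out; 3 further lines had been emptied for this work. Gene names and coordinates came from a RefSeq table of the R64 assembly, by systematic name (5128 of 5326 matched, all 10 members among them). log2 ratios (pseudocount 1) were called at 2-fold or 1.5-fold, for all listed genes and for genes whose mean RPKM reached 10. With averaged columns the planned limma fit was not possible, and no test was run. The counts over all 10 members, the centring on the median of all listed genes and the background of genes in the members' wild-type range were added after seeing the data; centring on the median of genes above the minimum had been planned. The members, lists and rule for named genes (the 10 members; up to 4 genes per other list at least 1.5-fold from the median gene; the genes beside each member; the 5 nearest patterns) were chosen with earlier results of these data known. The other genes named from the further U2 list and the Prp19 complex list were added after seeing the data. No sequence was printed. Calculations used Python 3.11.15, numpy 2.4.6, pandas 2.3.3, scipy 1.17.1 and matplotlib 3.10.9, and the ratio and normalization steps were tested on simulated data.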

Additional observations from a re-analysis of the deposited data

How the results depend on the processing

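With 1 averaged value per genotype, no replicate could be left out. No paired analysis was possible because the columns carry no replicate numbers. A value was counted as moved when it changed by over 1.5-fold, for want of a replicate spread. Under a mean RPKM of at least 10, where 0 of 3 members were at least 2-fold lower in every mutant, a minimum of 1 or none gave 3, 4 and 5 of 10 in set2Δ, H3K36A and eaf3Δ and moved the eaf3Δ median log2 to -1.03, against -0.43; a pseudocount of 0.1 gave 1 in H3K36A; quantile normalization moved the H3K36A median to -0.11, against -0.71. Over all 10 members, a pseudocount of 5, centring on the median gene and quantile normalization each gave 0, 1 and 0 at least 2-fold lower, and quantile normalization moved the medians to -0.26 in H3K36A and -0.30 in eaf3Δ. A pseudocount of 0.1 gave 1 member at least 2-fold lower in H3K36A over set2Δ, against 0. After quantile normalization 7, 8 and 7 of the 10 members were below wild type in set2Δ, H3K36A and eaf3Δ. The share of all listed genes below wild type on that scale was not computed, so these counts have no background. Over all listed genes, those at least 2-fold lower numbered 193, 635 and 579 with a pseudocount of 5 and 122, 434 and 308 after quantile normalization, in the same order. Of the alternatives for members' counts and medians, 22 moved and 194 did not. The latter include counts of members at least 2-fold higher, which were 0 under every setting. A minimum of 1 and no minimum kept the same genes, as no listed value is below 1.00. For single members, quantile normalization moved the ratio to wild type of 1 of 10 in set2Δ, 9 in H3K36A and 9 in eaf3Δ. The only median of at least 2-fold, that of all 10 members in eaf3Δ over wild type, was not reversed. Smaller medians did change sign: under quantile normalization that of the 3 members above the minimum was 0.08 in set2Δ, against -0.39, and 0.10 in eaf3Δ, against -0.43. In eaf3Δ over set2Δ it was 0.01 relative to the median gene compared, against -0.13, and over all 10 members 0.03 under quantile normalization, against -0.19. The cause of these differences was not tested, and the depth that limits each gene is unknown.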

Other observations

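The genes beside the 10 members on their chromosomes also had medians below the median gene. Of 20 flanking genes, 19 had a row, and none overlaps its neighbour in the coordinates of the reference table. At least 2-fold lower were 4 of the 19 in set2Δ, 6 in H3K36A and 7 in eaf3Δ, against 11.4%, 23.5% and 22.9% of all listed genes, with median relative log2 of -0.22, -0.39 and -0.43. Single neighbours differed from the member beside them in both directions. CLF1, on the opposite strand and separated from MSL5 by 218 bases, had 3.87, 3.22 and 2.99 in set2Δ, H3K36A and eaf3Δ, against 8.57 in wild type. YHM2, beside CUS1, had 146.1, 181.1 and 178.96, against 146.6, and GSF2, beside RSE1, 184.6, 195.8 and 156.2, against 178.7. DBP10, a ribosome assembly helicase beside PRP9, had 20.7, 11.1 and 16.2, against 45.5, and MTF2, beside PRP11, 1.59, 1.40 and 1.29, against 5.21. LHS1, a chaperone gene beside MUD2, had 9.53, 7.42 and 7.94, against 22.4.

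HIS3, one of the markers that the labels give as mutated in these strains, has a row, with 72.1 in set2Δ, 141.0 in H3K36A and 69.4 in eaf3Δ, against 61.2 in wild type. The labels do not say whether any part of the gene is missing.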
